A study of Mus musculus with 12 samples.

Results

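The insulin, insulin-like growth factor, prolactin and growth hormone receptors and their adaptors were examined in the DNA methylation maps of mouse pancreatic β cells. The set held 6 of 21738 protein-coding genes, chosen by name: the receptors *Insr*, *Igf1r*, *Prlr* and *Ghr*, and the adaptors *Irs1* and *Irs2*. Each locus was the annotated gene body plus 20 kb on either side, and its readouts were hypomethylated regions (HMRs), stretches in which most CpGs are unmethylated while the surrounding DNA is methylated. The HMRs called in the 4 pooled maps were merged where they overlapped, which gave 66 HMRs in the 6 loci of 87689 in the genome. HMRs are numbered along the chromosome within each locus.

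The β cells came from MNYI mice, which carry Myt1cCre, Ngn3nCre, Rosa26eYFP and InsApple. The paired half-Cre alleles mark the offspring of endocrine progenitors that made both Myt1 and Ngn3 (M+N+) with eYFP, and Apple marks β cells, so eYFP+ β cells descend from M+N+ progenitors and eYFP- β cells from M-N+ progenitors. All 4 groups carried the same alleles and were defined by age and eYFP: postnatal day 2 (P2) eYFP- and eYFP+, with 2 libraries each, and postnatal day 60 (P60) eYFP- and eYFP+, with 4 libraries each. Each library combined cells from several sorts and several mice. The sources do not state whether libraries of the same stage and sex came from separate animals. The spread between libraries is therefore a spread between pooled libraries, which may share animals.

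Insulin binds the receptor tyrosine kinase Insr, and insulin-like growth factors bind its relative Igf1r. Both phosphorylate the docking proteins Irs1 and Irs2, which recruit PI3K and thereby switch on AKT and hold FOXO factors out of the nucleus. Prlr and Ghr are cytokine receptors that signal through JAK2 and STAT5. In β cells, Irs2 supports cell mass and survival, and Prlr drives the expansion of the cell mass in pregnancy and takes part in neonatal growth.

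Of the 66 HMRs, 6 are shown as sequence because they differed strongly between ages, were HMRs of the libraries at only 1 age or held a difference between subtypes. They lie on the plus strand of GRCm39, with every CpG in capitals. An HMR longer than 300 bp is shown by its central 300 bp. Prlr-2 (chr15:10179839-10180138), Prlr-3 (chr15:10201090-10201389) and Prlr-6 (chr15:10225783-10226040) lie in the first intron of *Prlr* and were less methylated at P60. Prlr-4 (chr15:10215786-10216016), in the same intron and just before the start of transcript Prlr-206, was more methylated at P60. Igf1r-15 (chr7:67735258-67735489) lies in the second intron of *Igf1r*, and Irs2-9 (chr8:11061021-11061320) lies upstream of *Irs2* inside the annotated gene 9530052E02Rik. Both were more methylated at P60.
Prlr-2: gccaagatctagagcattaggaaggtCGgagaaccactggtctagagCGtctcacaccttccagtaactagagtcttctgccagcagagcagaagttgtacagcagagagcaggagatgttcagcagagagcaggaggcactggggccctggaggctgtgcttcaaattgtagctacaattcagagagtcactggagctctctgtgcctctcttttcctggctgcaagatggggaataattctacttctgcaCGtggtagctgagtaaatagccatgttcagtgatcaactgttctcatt
Prlr-3: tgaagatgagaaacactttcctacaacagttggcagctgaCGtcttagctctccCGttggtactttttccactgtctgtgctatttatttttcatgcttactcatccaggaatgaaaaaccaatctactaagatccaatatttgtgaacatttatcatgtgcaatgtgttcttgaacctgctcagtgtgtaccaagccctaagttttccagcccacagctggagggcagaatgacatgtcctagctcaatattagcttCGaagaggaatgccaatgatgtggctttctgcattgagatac
Prlr-6: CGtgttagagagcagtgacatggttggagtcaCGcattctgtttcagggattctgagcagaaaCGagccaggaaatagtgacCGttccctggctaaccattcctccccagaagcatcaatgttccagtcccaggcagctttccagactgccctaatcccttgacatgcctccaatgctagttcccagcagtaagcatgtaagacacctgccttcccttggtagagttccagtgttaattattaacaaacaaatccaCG
Prlr-4: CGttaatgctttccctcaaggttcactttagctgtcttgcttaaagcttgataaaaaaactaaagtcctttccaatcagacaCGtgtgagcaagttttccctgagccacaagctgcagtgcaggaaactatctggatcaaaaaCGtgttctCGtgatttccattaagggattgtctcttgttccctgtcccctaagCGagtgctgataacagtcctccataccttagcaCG
Igf1r-15: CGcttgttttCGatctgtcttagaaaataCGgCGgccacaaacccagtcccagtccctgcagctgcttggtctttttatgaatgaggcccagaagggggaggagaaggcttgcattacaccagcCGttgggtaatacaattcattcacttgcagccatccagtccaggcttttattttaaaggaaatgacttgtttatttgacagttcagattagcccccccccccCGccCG
Irs2-9: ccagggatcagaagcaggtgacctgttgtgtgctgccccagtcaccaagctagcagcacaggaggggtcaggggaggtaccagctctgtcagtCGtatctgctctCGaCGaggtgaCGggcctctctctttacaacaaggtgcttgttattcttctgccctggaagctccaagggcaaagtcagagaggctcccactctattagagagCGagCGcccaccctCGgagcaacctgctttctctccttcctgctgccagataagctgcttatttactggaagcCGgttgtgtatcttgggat

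The pooled maps held 24.0 and 24.2 reads per CpG at P2 (eYFP- and eYFP+) and 43.7 and 43.4 at P60, over 21730423 CpGs listed at both ages. Single libraries were deposited as HMR positions alone, so their read depth is not given here. Each P60 pool joined more libraries than each P2 pool, so the pooled depths do not show that single P60 libraries were deeper. The P2 libraries held 57109 to 60950 HMRs covering 55.6 to 58.7 Mb, and the P60 libraries 38052 to 49939 HMRs covering 42.7 to 46.1 Mb. The library names fall into 3 sets, all P2 libraries, P60 replicates 1 and 2, and P60 replicates 3 and 4, so age and set cannot be told apart. In the P2 eYFP- group, replicate 1 is labelled female and replicate 2 male, whereas their X-linked HMRs had the opposite pattern. Of 253 X-linked HMRs typical of the P60 males, the former held 91.7% and the latter 13.4%, against 13.0% and 83.8% in the eYFP+ female and male. No test here compared the sexes at P2. Replicate number at P2 goes with the labelled sex, so tests that paired or averaged P2 libraries by replicate number followed these labels. Of 10 β-cell marker genes, 7 had an HMR at the gene start in all 12 libraries, *Ins1* had one in 8, and *Ins2* and *G6pc2* had none. No library had an HMR at the starts of *Gcg*, *Sst* or *Ppy* or of the 2 duct and 3 immune markers.

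The HMR length summed over each locus gave 1 value per library and the comparison of ages with replicates. Over 4 P2 and 8 P60 libraries, 4 of the 6 loci fell and *Prlr* rose (exact permutation test, two-sided, Benjamini-Hochberg over 18937 genes). Of all genes, 50.5% fell and 1.11% rose, with a median drop of 14.6%, so the 4 falls went with the genome and only the rise of *Prlr* went against it. These p-values take the 12 libraries as separate, although same-numbered P60 libraries deviated together to a small degree (correlations of 0.140 to 0.309). With same-numbered libraries averaged, every difference kept its direction and size, but 2 against 4 values cannot give an exact permutation p below 0.133, and 0 of the 6 loci passed (adjusted p = 0.212 for *Prlr*). The plot of HMR length by library shows each value.

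**Figure D1:**
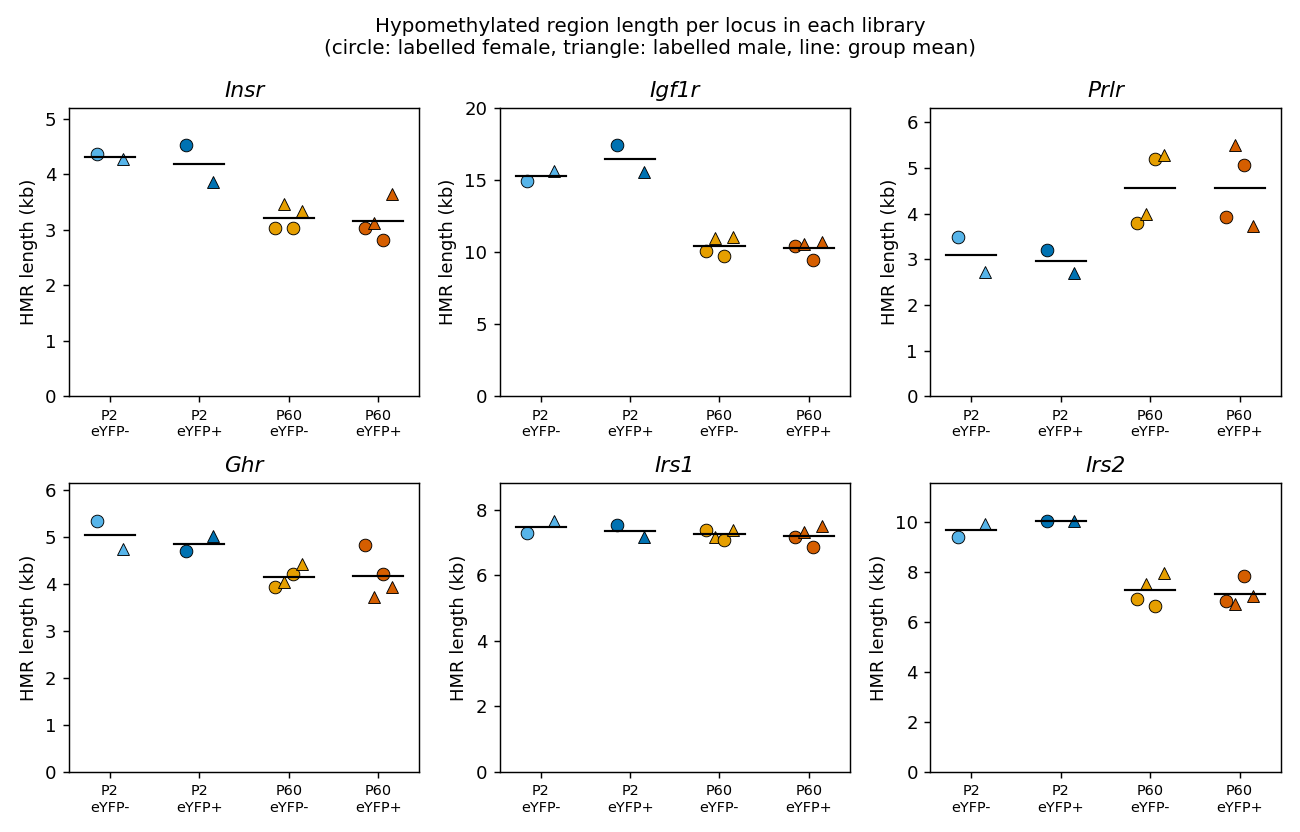
HMR length in kb summed over each locus, 1 point per library (circles labelled female, triangles labelled male), with a line at each group mean. The 8 P60 libraries of *Prlr* sit between 3.73 and 5.50 kb, all above the 4 P2 libraries at 2.70 to 3.48 kb, while those of *Igf1r*, *Insr* and *Irs2* sit below their P2 libraries.

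*Insr*, the insulin receptor (chr8:3172061-3329647, minus strand), had HMRs over 4.37 and 4.27 kb in the P2 eYFP- libraries and 4.52 and 3.86 kb in the P2 eYFP+ libraries. The P60 libraries ranged from 2.81 to 3.64 kb, with a median of 3.08 kb. The ages did not overlap, and the mean fell from 4.25 ± 0.282 kb (SD, n = 4) to 3.19 ± 0.271 kb (SD, n = 8; exact permutation p = 0.00404, the smallest this design allows; adjusted p = 0.0108). The locus held 5 HMRs. Its gene-start HMR, Insr-5 (2328 bp, 107 CpGs), was in all 12 libraries at a level of 4.4% and 3.4% at P2 (eYFP- and eYFP+) and 7.4% and 6.8% at P60. Those differences of 3.05 and 3.40 points were below the limit of 10 points set for a call. Insr-2, in the second intron, stayed between 1.5% and 2.0% in the 4 pools and was in all 12 libraries. Insr-3, in the same intron, went from 4.3% to 13.7% in eYFP- cells and from 1.3% to 14.2% in eYFP+ cells. Only the eYFP+ difference of 12.8 points passed both limits (Fisher's exact test, adjusted p = 6.8e-08), the eYFP- difference of 9.40 points lying just under the size limit (adjusted p = 0.000795). Insr-3 was in 4 of 4 P2 and 3 of 8 P60 libraries.

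*Igf1r*, the receptor for insulin-like growth factors (chr7:67601518-67883416, plus strand), had the longest HMR total of the set. It measured 14.9 and 15.6 kb in the P2 eYFP- libraries, 17.4 and 15.6 kb in the P2 eYFP+ libraries, and 9.43 to 11.04 kb at P60 with a median of 10.5 kb. The ages did not overlap, and the mean fell by 5.51 kb, from 15.9 ± 1.07 kb (SD, n = 4) to 10.4 ± 0.577 kb (SD, n = 8; exact permutation p = 0.00404, adjusted p = 0.0108). The loss was spread over many of its 26 HMRs, as the level of each HMR in the pooled maps shows.

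For those levels, methylated and total reads were summed over the CpGs of each HMR, and a difference was called where Fisher's exact test gave an adjusted p under 0.05 over all HMRs and the levels differed by at least 10 percentage points. Pooled reads carry no replicate error, so these p-values compare pools and not animals, and the library HMRs come from the same cells and do not test the levels independently. In eYFP- cells, 24 of the 66 HMRs were higher at P60 and 5 lower, against 27.4% and 3.16% of all HMRs. In eYFP+ cells, 21 were higher and 6 lower, against 26.1% and 4.09%. Of these, 19 were higher and 5 lower in both subtypes, against 19394 and 1482 of all 87689 HMRs. HMRs called at 1 age only were part of the merged set, which favoured differences between ages. Of the 33 HMRs that were called in all 4 pools, 4 were higher and 0 lower in eYFP- cells (11.3% and 1.10% of all such HMRs), and 4 were higher and 1 lower in eYFP+ cells (9.92% and 1.66%). The plot of differences by HMR gives all 66.

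**Figure D2:**
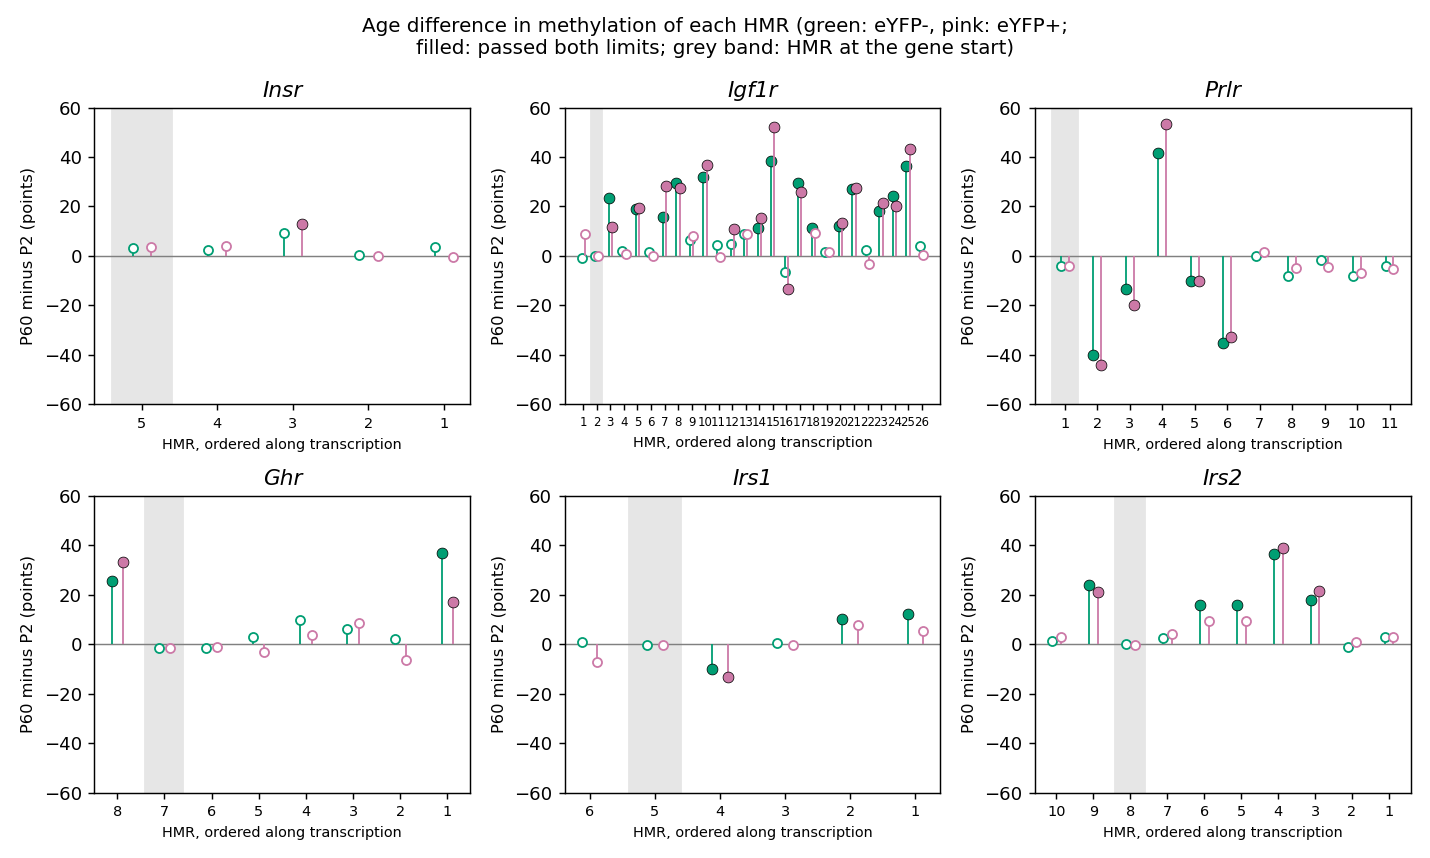
Methylation level of each HMR at P60 minus that at P2, in percentage points, for eYFP- (green) and eYFP+ (pink) pools, with HMRs in the order of transcription. Filled points passed both limits, and grey bands mark the HMR at the gene start, none of which passed. *Prlr* holds 4 of the 5 HMRs that were lower at P60 in both subtypes, and *Igf1r* 13 of the 19 that were higher.

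*Igf1r* held 14 higher HMRs in each subtype, 13 of them in both, and 1 lower, Igf1r-16, in eYFP+ cells (20.2% at P2 and 6.9% at P60, adjusted p by Fisher's exact test = 6.8e-06). Igf1r-15, shown above, went from 33.1% to 71.6% in eYFP- cells and from 18.4% to 70.5% in eYFP+ cells (Fisher's exact test, adjusted p = 1.6e-14 and 4.7e-26). All 6 of its CpGs with at least 10 reads in every pool were higher at P60 in both subtypes. Igf1r-10, in the same intron, went from 14.2% to 46.2% and from 6.8% to 43.6%, and 8 of 8 CpGs were higher. Igf1r-25, which lies past the end of *Igf1r* inside the body of *Pgpep1l*, went from 23.5% to 59.6% and from 13.9% to 57.0%. By contrast, the gene-start HMR Igf1r-2 (4705 bp, 377 CpGs) stayed at 1.5% to 1.6% in the 4 pools, and the intronic Igf1r-4, Igf1r-6 and Igf1r-19 stayed within 5.8% to 13.3%. All 4 were in all 12 libraries. Outside HMRs, the *Igf1r* locus was at 79.95% and 79.7% at P2 and 84.8% and 84.0% at P60, while the median over genes lay between 77.3% and 78.0% in the 4 pools.

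*Prlr*, the prolactin receptor (chr15:10177258-10349959, plus strand), was the only locus of the 6 whose HMR length rose. It measured 3.48 and 2.73 kb in the P2 eYFP- libraries and 3.21 and 2.70 kb in the P2 eYFP+ libraries. At P60 it measured 3.81, 4.00, 5.20 and 5.29 kb in the eYFP- libraries and 3.94, 5.50, 5.07 and 3.73 kb in the eYFP+ libraries. Every P60 library lay above every P2 library, and the mean rose by 1.53 kb from 3.03 ± 0.382 kb (SD, n = 4) to 4.57 ± 0.761 kb (SD, n = 8; exact permutation p = 0.00404, adjusted p = 0.0108). Against either P60 set alone the mean was higher by 1.28 kb (replicates 1 and 2) and 1.79 kb (replicates 3 and 4), with adjusted p = 0.0635 and 0.0643 by the exact permutation test, in designs whose adjusted p stayed above 0.05 for all 6 loci. As a share of each library's HMR total *Prlr* was higher at P60 by 0.489 bp per 10 kb of HMR (adjusted p = 0.0123, exact permutation test).

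The first intron of *Prlr* held the HMRs that changed. Of the 3 *Prlr* HMRs called in all 4 pools, 0 were higher and 0 lower in either subtype. The *Prlr* HMRs called for age were thus HMRs of some pools only, a choice that favours such differences in the same reads. Prlr-2 lies 2731 bp past the gene start. Its level was 52.0% (95% Wilson interval 44.6 to 59.3%, 175 reads) and 58.8% (51.7 to 65.6%, 187 reads) at P2 in eYFP- and eYFP+ cells, and 11.9% (8.84 to 15.8%, 337 reads) and 14.6% (11.01 to 19.1%, 295 reads) at P60. By Fisher's exact test, the falls of 40.1 and 44.2 points had adjusted p = 1.4e-20 and 1.8e-22, and all 6 CpGs were lower in both subtypes. In single libraries an HMR was called there in 0 of 4 at P2 and 2 of 8 at P60.

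Prlr-6, 48653 bp past the start, went from 45.7% to 10.4% in eYFP- cells and from 44.1% to 11.2% in eYFP+ cells (Fisher's exact test, adjusted p = 1.4e-12 and 2.9e-11). Of its 5 CpGs, 4 were lower and the remaining CpG was at 0% at P2 and under 2.4% at P60. The CpGs around it were lower as well. The 10 CpGs outside the HMR but within 1500 bp of its centre went from 81.3% to 45.8% and from 83.9% to 49.4%. Around Prlr-2 the 38 outer CpGs went from 74.0% to 61.9% and from 72.9% to 59.7%. Outer CpGs were likewise higher at P60 around shown HMRs that gained methylation. Around Igf1r-15 they went from 76.0% to 89.7% and from 75.4% to 87.8%. Around Prlr-4 they went from 81.1% to 91.9% and from 80.5% to 87.4%. Those around Irs2-9 went from 17.4% to 27.4% and from 21.7% to 26.4%. The outer CpGs of Irs2-9 took in part of the gene-start HMR Irs2-8, and those of Prlr-2 part of the gene-start HMR Prlr-1. No library had an HMR called at Prlr-6.

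Prlr-3 went from 14.8% to 1.6% and from 23.1% to 3.2% (Fisher's exact test, adjusted p = 1.1e-06 and 4.7e-10), and was an HMR in 0 of 4 P2 and 5 of 8 P60 libraries. Prlr-5, which holds the starts of the annotated transcripts Prlr-204, Prlr-205, Prlr-212 and Prlr-226, went from 13.5% to 3.2% and from 18.2% to 7.9%. Those differences of 10.3 points in both subtypes lay just inside the size limit (Fisher's exact test, adjusted p = 0.0025 and 0.014). It was an HMR in 0 of 4 P2 and 4 of 8 P60 libraries.

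Prlr-4 moved the other way. It lies between Prlr-3 and Prlr-5 and went from 33.1% to 74.5% and from 18.7% to 72.02% (Fisher's exact test, adjusted p = 1.1e-13 and 5.2e-23), with 6 of 6 CpGs higher in both subtypes. The intron thus held HMRs of opposite direction within about the first 50 kb, as the profiles of single CpGs show. The gene-start HMR, Prlr-1, was in all 12 libraries and went from 6.8% to 2.6% and from 6.3% to 2.4%, which is below the size limit. Prlr-11, past the canonical transcript, was likewise in all 12 libraries and lay between 16.6% and 21.9%. *Prlr* was poor in CpGs, with a median of 3 CpGs in the central 300 bp of its HMRs against 6 over all HMRs, and its 9 HMRs other than Prlr-1 and Prlr-11 rested on 105 to 337 reads per pool.

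**Figure D3:**
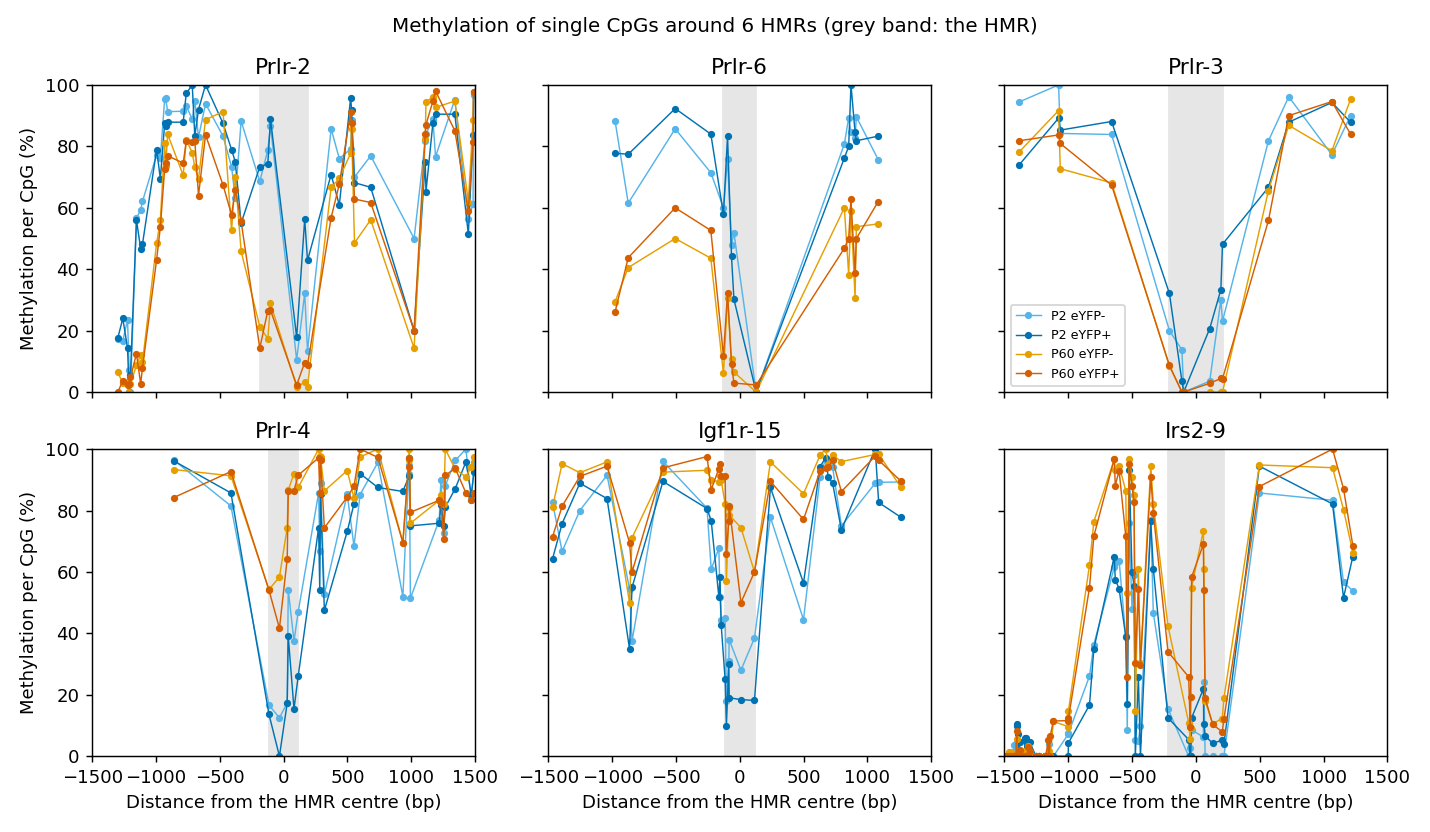
Methylation of single CpGs (%) with at least 10 reads in every pool, by distance in bp from the centre of 6 HMRs, for the 4 pools, with the HMR as a grey band. In Prlr-2, Prlr-6 and Prlr-3 the P60 pools (orange) lie below the P2 pools (blue), and in Prlr-4, Igf1r-15 and Irs2-9 above them.

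*Ghr*, the growth hormone receptor (chr15:3347235-3613024, minus strand), had HMRs over 5.35 and 4.74 kb in the P2 eYFP- libraries and 4.70 and 5.02 kb in the P2 eYFP+ libraries. The P60 libraries ranged from 3.73 to 4.82 kb, with a median of 4.12 kb. The ages overlapped in 1 library, P60 eYFP+ replicate 1, and the mean fell from 4.95 ± 0.299 kb (SD, n = 4) to 4.16 ± 0.343 kb (SD, n = 8; exact permutation p = 0.0121, adjusted p = 0.0263). The adjusted p was 0.0525 to 0.0706 when any 1 P2 library was left out. As a share of each library's HMR total, *Ghr* turned to a rise of 0.0565 bp per 10 kb of HMR (adjusted p = 0.393, exact permutation test).

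Of 8 *Ghr* HMRs, 2 were higher at P60 in both subtypes. Ghr-8, 1105 bp upstream of the gene start, went from 15.2% to 40.8% in eYFP- cells and from 10.1% to 43.3% in eYFP+ cells (Fisher's exact test, adjusted p = 4.7e-07 and 2.4e-12). Ghr-1, in the third intron, went from 13.1% to 50% and from 23.4% to 40.5% (Fisher's exact test, adjusted p = 1.6e-12 and 0.0021). The gene-start HMR Ghr-7 (3069 bp) went from 2.6% and 2.9% to 1.2% in both subtypes, below the size limit.

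*Irs1*, a docking protein for both receptor kinases (chr1:82210822-82269338, minus strand), was the locus with the smallest difference between ages. It measured 7.30 and 7.67 kb in the P2 eYFP- libraries, 7.54 and 7.16 kb in the P2 eYFP+ libraries, and 6.85 to 7.50 kb at P60. The ages overlapped, with means of 7.42 ± 0.229 kb (SD, n = 4) and 7.23 ± 0.206 kb (SD, n = 8; exact permutation p = 0.178, adjusted p = 0.259). Because HMR totals were shorter at P60 throughout, the *Irs1* share of the library total was higher at P60 by 0.307 bp per 10 kb of HMR (adjusted p = 0.0123, exact permutation test). Its gene-start HMR Irs1-5 spanned 4622 bp and stayed between 1.6% and 2.1%. Irs1-4, in the first intron, was lower at P60 in both subtypes, from 26.7% to 16.6% and from 29.3% to 16.1% (Fisher's exact test, adjusted p = 0.042 and 0.0048), the eYFP- difference of 10.1 points lying just inside the size limit. Irs1-1 and Irs1-2 were higher in eYFP- cells by 12.1 and 10.4 points and in eYFP+ cells by 5.43 and 7.68 points, which was not called. The age effect in eYFP+ cells minus that in eYFP- cells was -6.69 points in Irs1-1 and -2.68 points in Irs1-2, and neither difference passed (exact test of equal odds ratios on pooled reads, adjusted p = 0.703 and 1.00). Of the 66 HMRs, 0 passed that test, against 1.21% of all HMRs, 7 had an unadjusted p under 0.05, and a normal test of the difference in points also called 0, with 7 at an unadjusted p under 0.05.

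*Irs2*, the docking protein that supports β-cell mass (chr8:11034681-11059499, minus strand), had HMRs over 9.43 and 9.93 kb in the P2 eYFP- libraries and 10.1 and 10.1 kb in the P2 eYFP+ libraries. The P60 libraries ranged from 6.63 to 7.99 kb, with a median of 6.98 kb. The ages did not overlap, and the mean fell by 2.68 kb from 9.87 ± 0.303 kb (SD, n = 4) to 7.19 ± 0.524 kb (SD, n = 8; exact permutation p = 0.00404, adjusted p = 0.0108). As a share of the library total the falls of *Irs2* and *Insr* no longer passed (adjusted p = 0.128 and 0.284, exact permutation test), whereas that of *Igf1r* did.

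Of 10 *Irs2* HMRs, 5 were higher at P60 in eYFP- cells and 3 in both subtypes, and 0 were lower. Irs2-4, just past the end of the gene, went from 17.3% to 53.9% and from 17.2% to 56.4% (Fisher's exact test, adjusted p = 1.2e-14 and 2.0e-17), with 6 of 6 CpGs higher. Irs2-9, 1672 bp upstream of the gene start, went from 4.7% to 28.7% and from 7.4% to 28.7% (Fisher's exact test, adjusted p = 4.7e-20 and 9.0e-15), with 11 of 11 CpGs higher. The neighbouring gene-start HMR Irs2-8 held 369 CpGs at 1.0% to 1.4% in all 4 pools. Irs2-7, which overlaps an exon, was in all 12 libraries at 16.3% to 20.3%.

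Across single libraries, an HMR overlapped the merged HMR in all 12 libraries for 20 of the 66 and in none for 10. Of all 87689 HMRs, 30860 were found in all 12 libraries. The number of libraries with an HMR fell between ages for 4 of the 66, Igf1r-10, Igf1r-21, Irs2-3 and Irs2-9, each in 4 of 4 P2 and 0 of 8 P60 libraries (Fisher's exact test, adjusted p = 0.0379), against 5.27% of all HMRs. It rose for 0 of the 66, against 0.0627% of all HMRs. At an unadjusted p under 0.05 by the same exact test the counts were 9 and 0, for which no share over all HMRs is given here. The further 5 were Igf1r-3, Igf1r-14, Igf1r-17, Irs2-6 and Ghr-4. With 4 and 8 libraries only a complete separation passed, and with any 1 library left out no HMR of the genome did. The map of HMRs by library shows which were shared.

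**Figure D4:**
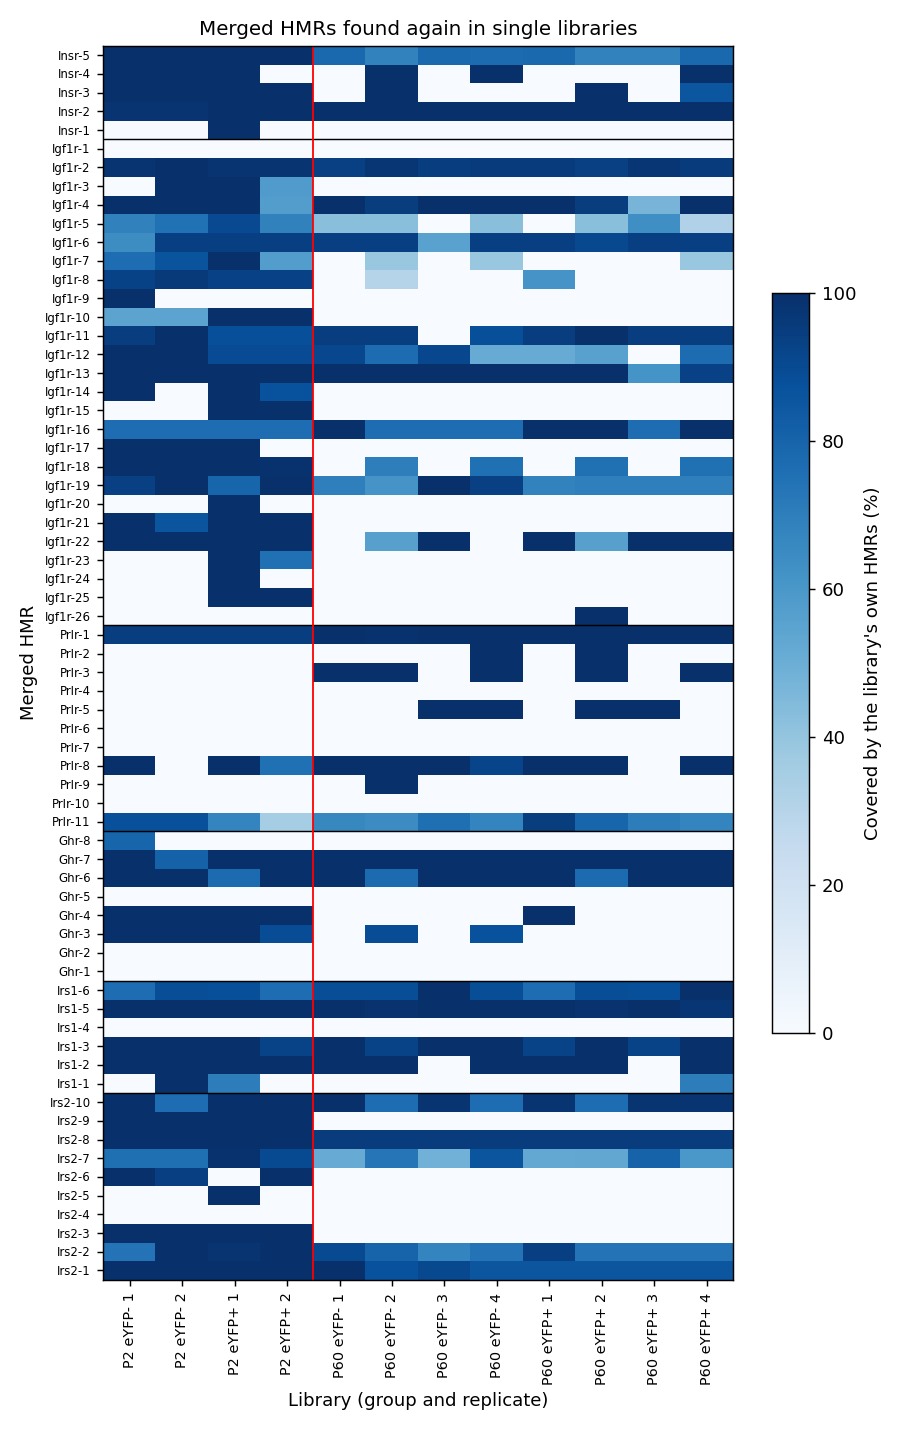
Share of each merged HMR covered by the HMRs of a single library (%), for the 66 HMRs (rows, in the order of transcription within each locus) and 12 libraries (columns, P2 left of the red line). Igf1r-10, Igf1r-21, Irs2-3 and Irs2-9 are filled in the P2 columns alone, and Prlr-2, Prlr-3 and Prlr-5 in P60 columns alone.

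At the gene starts, no member was called for age. In the 500 bp on either side, the level was 0.518% to 1.12% in the 4 pools for *Insr*, *Igf1r*, *Irs1* and *Irs2*, 3.11% to 4.78% for *Ghr* and 14.1% to 17.8% for *Prlr*. Of all gene starts, 4.22% were higher and 2.13% lower at P60 in eYFP- cells, and 4.09% were higher and 3.67% lower in eYFP+ cells (Fisher's exact test on pooled reads and the same limits). All 6 gene starts overlapped an HMR in all 12 libraries.

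The comparison of eYFP+ with eYFP- β cells asked whether progenitor origin left a difference at these loci. The columns of the pooled counts do not name the subtypes, and which is eYFP+ was taken from the number of DMRs in each direction, so the direction of every pooled subtype difference rests on that assignment. At P2, 0 of 66 HMRs were called higher and 0 lower in eYFP+ cells, against 0.897% and 0.479% of all HMRs. The adjusted p was under 0.05 for 1 of them, Irs1-6, upstream of *Irs1*, at 6.9% in eYFP- and 14.5% in eYFP+ cells (Fisher's exact test, adjusted p = 0.025), where the difference of 7.60 points was below the size limit. At P60, 1 HMR was called higher and 0 lower, against 0.392% and 0.432%. It was Igf1r-12, in the second intron of *Igf1r*, at 10.8% (8.58 to 13.5%, 611 reads) in eYFP- and 21.1% (17.7 to 24.99%, 474 reads) in eYFP+ cells (Fisher's exact test, adjusted p = 0.0012). At 10.3 points it lay just inside the limit. At P2 the same HMR was at 5.9% and 10.1% (Fisher's exact test, adjusted p = 0.36).

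Differentially methylated regions (DMRs) were rebuilt as the stretches of an HMR of one subtype that lay outside the HMRs of the other and held at least 2 differing CpGs over at least 50 bp. The 6 loci held 3 at P2 and 0 at P60. Lower in eYFP- cells was 1, in Prlr-3 (14.8% and 23.1%), against 2.16% of all HMRs that held such a DMR. Lower in eYFP+ cells were 2, against 2.48%. They were the whole of Igf1r-15 (33.1% in eYFP- and 18.4% in eYFP+ cells) and 55 bp at the end of Igf1r-8 (36.5% and 16.1%). At P60 the background was 1.25% lower in eYFP- and 1.42% lower in eYFP+ cells. The whole-HMR tests of Igf1r-15 and Prlr-3 at P2 (Fisher's exact test) had adjusted p = 0.076 and 0.39. In single libraries at P2, Igf1r-15 was an HMR in both eYFP+ and neither eYFP- library, while Prlr-3 was one in no P2 library. At P60 the levels of Igf1r-15 were 71.6% and 70.5%, and those of Prlr-3 1.6% and 3.2%.

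The HMR length per locus did not pass for any of the 6 loci between subtypes. At P60 the differences ran from a fall of 0.178 kb in *Igf1r* to a rise of 0.0203 kb in *Ghr* (exact permutation test, unadjusted p = 0.714 to 1.00), and pairing the replicate numbers changed no call. At P2 the unadjusted p was 0.333 to 1.00, and 0.333 is the smallest 2 against 2 libraries can give. At P60, 0 of 18937 genes passed the adjustment and 344 had an unadjusted p under 0.05.

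Between libraries labelled male and female at P60, *Igf1r* measured 10.8 ± 0.225 kb and 9.92 ± 0.420 kb (SD, n = 4 each) and *Insr* 3.39 ± 0.215 kb and 2.98 ± 0.115 kb. Both differences had the smallest p of the design (exact permutation p = 0.0286) and neither passed the adjustment (adjusted p = 0.366). By the same test, 1479 of 18937 genes had an unadjusted p under 0.05 and 0 passed the adjustment. The male libraries are replicates 2 and 4 and the female ones 1 and 3 of both subtypes, so with same-numbered libraries averaged the sexes had 2 values each and p = 0.333 for both genes (exact permutation test), the smallest such a design can give. Male P60 libraries held 46269 to 49939 HMRs and female ones 38052 to 44636, and as a share of the library total the unadjusted p was 0.0857 and 0.0571. The part of the library totals in the difference was not tested further. The other 4 loci had p = 0.143 to 0.629 by the same exact test.

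Short motifs were counted in the central 300 bp of each HMR, on both strands, as a description of the sequence. The STAT5 element TTCNNNGAA was in 5 of 66 HMRs (7.58%) and in 8.71% of all HMRs, and in *Prlr* it was in Prlr-8 alone. The forkhead element TGTTTAC, shared by FOXA and FOXO factors, was in 14 of 66 (21.2%) and in 7.79% of all, including 2 of the 5 HMRs that were lower at P60 in both subtypes (Prlr-5 and Irs1-4) and 3 of the 19 that were higher (Igf1r-7, Igf1r-14 and Igf1r-17). The E-box CAGATG was in 17 of 66 (25.8%) and in 25.3% of all, and the homeodomain element TAATTA in 9 of 66 (13.6%) and in 10.8% of all, among them Prlr-6. No motif contains another, and a match is not evidence that a factor was bound.

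The other genes of the pathway were taken from fixed lists and compared over the same libraries and test. Of 14 ligands and binding proteins, HMR length fell for 5 and rose for 3. *Ins1*, an insulin gene, rose from 2.41 kb (2.33 to 2.44 kb) at P2 to 4.36 kb (3.25 to 5.99 kb) at P60, and its gene-start level fell by 20.4 points in eYFP- and by 29.3 points in eYFP+ cells. *Igfbp1* and *Igfbp3* shared the same neighbouring HMRs and rose together from 3.59 to 4.04 kb. *Igf1*, which encodes the ligand of Igf1r, fell from 5.13 to 3.72 kb, and *Igfbp7* from 5.72 to 4.03 kb. Of 5 other receptors, 3 fell and 0 rose. The HMRs of *Igf2r*, the scavenger receptor for IGF2, fell from 3.73 kb (3.21 to 4.13 kb) to 0.0328 kb (0 to 0.184 kb), the largest fall of that list.

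Of 17 adaptors and negative regulators, 8 fell and 1 rose. *Gab1*, a docking protein, fell from 5.67 to 2.86 kb, *Grb10*, an inhibitor of both receptor kinases, from 5.40 to 2.65 kb, and the *Irs* relative *Irs3* from 5.16 to 3.18 kb, while the adaptor *Shc1* rose from 8.57 to 9.34 kb. The *Grb10* gene start gained 25.2 points in eYFP- and 20.6 points in eYFP+ cells. Of 20 genes of the PI3K, AKT and FOXO arm, 11 fell and 1 rose. *Foxo3*, a forkhead factor that AKT inhibits, fell from 11.7 to 7.88 kb, *Tsc1*, a brake on mTOR, from 8.31 to 4.97 kb, and *Rptor*, a subunit of mTORC1, from 8.88 to 5.86 kb. The regulatory subunit gene *Pik3r2* rose from 9.36 to 9.999 kb.

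Of 16 genes of the JAK and STAT arm and β-cell targets of prolactin, 10 fell and 1 rose. *Jak2*, the kinase bound to Prlr and Ghr, fell from 7.23 to 4.94 kb. *Cdkn1b*, a cell-cycle inhibitor, rose from 7.32 to 8.32 kb. The counts of falls in these lists lay at or below the 50.5% of all genes in the ligand and adaptor lists and above it in the others, and no list was tested as a set. The prolactin gene *Prl* itself had no HMR in any library.

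The genes whose HMR length followed each member most closely across the 12 libraries were *Fgr* and *Hmgb1* for *Igf1r* (Pearson r = 0.994 each), *Tmem40* and *Sppl2b* for *Insr* (0.984 and 0.975), *Pam16* and *Eya1* for *Irs2* (0.987 and 0.986), *Sfxn2* and *Ift70b* for *Ghr* (0.961 and 0.952), *Llph* and *Rpl23* for *Irs1* (0.913 and 0.910), and *Anapc7* and *Taar1* for *Prlr* (0.826 and 0.824). These libraries share age and HMR totals, so the values describe a common pattern over 12 libraries and nothing of function.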

How the data were processed

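DNA methylation was measured by whole-genome bisulfite sequencing of sorted β cells. Per the labels and the study's methods, the authors trimmed reads (Trim Galore 0.6.6, cutadapt 1.16 and SAMtools 1.5 are named in the submitters' processing notes), mapped them to mm39 and called HMRs with MethPipe, whose version is not given in the sources used here. They deposited counts of methylated and unmethylated reads per CpG for the libraries of a group pooled, and HMR positions per pool and per library. The labels do not say which count columns are eYFP- and which eYFP+. They were assigned by matching the number of DMRs per direction to the study's text. The labels write eGFP and islet cells where the methods describe sorted eYFP β cells. The deposited DMR lists and per-CpG difference scores are comparisons by the authors and were not used.

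All deposited CpG positions fell on CG of GRCm39, and annotation came from GENCODE M39. Levels are methylated over total reads, intervals are 95% Wilson intervals that cover counting error only, and reads are not independent molecules of separate animals. HMR levels, gene starts and HMR presence were tested with Fisher's exact test, unlike age effects in the subtypes with Zelen's exact test of equal odds ratios (added after the data were seen), and HMR lengths with exact permutation tests over libraries, all two-sided with Benjamini-Hochberg adjustment over the whole table (Python 3.11.15, numpy 2.4.6, scipy 1.17.1). Named HMRs were, per locus, that at the gene start, the 3 with the largest age difference and that with the largest subtype difference among HMRs with at least 50 reads in every pool; others were named after their values were seen. Named pathway genes were up to 3 per direction with the largest difference, and some of these are not reported here. The members and lists were chosen with earlier results of these data known. Replicate numbers were used to pair the P60 libraries. The deviations of same-numbered libraries correlated only weakly, at 0.150, 0.204, 0.309 and 0.140. By HMR overlap (Jaccard index), the closest library to each replicate 4 library was replicate 2 of the other subtype. The study sorted both subtypes from MNYI islets and combined sorted batches for each stage and sex. It does not state whether libraries shared animals, and they may have done so. The p-values therefore measure the spread between pooled libraries. The Fisher, permutation, overlap and difference-of-differences functions were tested on simulated data.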

Additional observations from a re-analysis of the deposited data

How the results depend on the processing

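HMR levels are limited by 1 pool per group and by CpG coverage, library HMRs are limited by what was called at each depth, and age went with library set. The number of member HMRs called for age was 29 in eYFP- and 27 in eYFP+ cells. With HMRs of all 4 pools only it was 4 and 5, at 20 points 15 and 16, and in eYFP+ cells with no size limit 41. For subtype it was 0 at P2, and 1 with no size limit, and 1 at P60, and 0 at 20 points. Restricting CpGs to at least 10 reads, HMRs to at least 200 bp or loci to gene bodies left every one of these counts within 1.5 times. *Prlr* had 4 lower HMRs in either subtype with CpGs of at least 10 reads, against 2 at 20 points and 0 among HMRs of all 4 pools. HMR presence called 4 members and 0 with either P60 set alone or without any 1 library (range 0 to 0), because such designs have no p small enough.

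HMR length called 5 of 6 loci for age, 3 as a share of the library total (*Igf1r*, *Prlr* and *Irs1*), and 0 with P60 replicates 1 and 2 only, P60 replicates 3 and 4 only, eYFP- libraries only or eYFP+ libraries only, where fewer libraries raise the smallest p. Leaving out 1 library gave 4 to 5, the loss being *Ghr*, whose share of the library total reversed to 0.0565. The direction of the other loci held under these settings, except that *Irs1*, which was not called, was higher at P60 as a share (0.307). With the replicate block, 0 of 6 loci passed between subtypes at P60 and at P2, as without it. Averaging same-numbered libraries, chosen after seeing the data, gave 0 of 6 loci for age because 6 values have no p small enough, and raised the unadjusted p of *Igf1r* and *Insr* between sexes to 0.333. Counts of 0 for gene starts were unchanged with each alternative window or limit. DMRs in the loci numbered 3, 0 with at least 3 differing CpGs and 2 at 100 bp or longer.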
